A study of Homo sapiens with 12 samples.

Results

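Axon guidance ligands and receptors were examined in DU145 cells, a line of human prostate carcinoma, with a control or a knockdown hairpin. The genes were picked by a rule on their names, set with earlier results of these data known, as the protein-coding genes called ROBO1 to ROBO4, SLIT1 to SLIT3, EPHA or EPHB, EFNA or EFNB, NTN1 to NTN5, NRP1, NRP2 or DCC, or with a name that begins with SEMA, PLXN or UNC5. This gave 71 of the 28747 gene identifiers in the count table, of which 19237 were protein-coding. The 71 genes were 22 ephrins and Eph receptors, 7 Slits and Robos, 10 netrins and netrin receptors, 31 semaphorins, plexins and neuropilins, and UNC50, which shares the letters of the UNC5 receptors but has no known guidance role.

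RNA was sequenced from 4 groups of 3 libraries. Cells carried a control hairpin (shCtrl) or the knockdown hairpin (shSigma), delivered by lentivirus and kept as stable lines under puromycin, and each line was grown either as adherent cells or as tumor spheres. Spheres were grown without attachment in serum-free medium with B-27, insulin, FGF2 and EGF, so the cultures differ in medium as well as in form. Each hairpin was studied in 1 stable line, so the effect of the hairpin cannot be told apart from other differences between both lines. The study's methods describe the replicates as biologically independent, and p-values measure the spread between such replicates of a line. Total counts ran from 16472722 to 26957777 per library. Levels are given in CPM (counts scaled to a common effective library size), and group values are means ± SD with n = 3. Of 5 epithelial markers, EPCAM fell from 235 to 30.9 CPM in adherent cells and from 613 to 61.9 CPM in spheres, and CDH1 fell from 26.8 to 12 CPM and from 727 to 27.8 CPM. The keratins rose in adherent cells, KRT19 from 92.7 to 359 CPM, KRT8 from 234 to 413 CPM and KRT18 from 321 to 502 CPM, while in spheres KRT8 and KRT18 fell to 333 and 289 CPM and KRT19 was not called. The summed level of the 5 ran from 878 to 964 CPM in adherent shCtrl, 1140 to 1450 CPM in adherent shSigma, 2280 to 2350 CPM in sphere shCtrl and 897 to 954 CPM in sphere shSigma. KLK3 stayed under 0.1 CPM in every library. Of 11 markers of endothelium, fibroblasts, leukocytes and neurons, 7 stayed under 1 CPM in all 12 libraries, LUM was at 0, and the summed level of the list ran from 17.5 to 22.5 CPM in adherent shCtrl, 13.6 to 15.8 CPM in adherent shSigma, 33.8 to 38.5 CPM in sphere shCtrl and 19.7 to 23.4 CPM in sphere shSigma, mostly COL1A1 and SNAP25. The part of these markers in the results was not tested.

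Axon guidance genes encode secreted or membrane-bound cues and the receptors that read them, first known for steering growing neurites by attraction and repulsion. Slits act through Robo receptors, netrins through DCC, neogenin and UNC5 receptors, ephrins through Eph receptor tyrosine kinases in contacts between cells, and semaphorins through plexins, with neuropilins as co-receptors for most of the secreted class 3 members. In epithelia and carcinomas the same families are known for roles in cell adhesion, sorting, migration and vessel growth.

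With the knockdown hairpin, members of the family were called higher and lower in both cultures. A gene was called when its adjusted p was under 0.05 (edgeR's quasi-likelihood test, adjusted by Benjamini-Hochberg across every gene in the fit), and a second count took those whose log2 fold change was also at least 1 in size. In adherent cells 25 of the 51 members tested were called, 18 higher and 7 lower, which is 49.0% against 50% of all 13764 genes tested. Both thresholds were met by 16 members (10 higher, 6 lower), or 31.4% against 13.7% of all genes. In spheres 30 of 50 members were called, 16 higher and 14 lower, or 60% against 61.1% of all 13774 genes, and both were met by 10 members (4 higher, 6 lower), or 20% against 13.1%. The median log2 fold change over the members was 0.42 in adherent cells and 0.02 in spheres, where all genes had medians of -0.01 and 0.00. The remaining members were 2 tested in adherent cells only, 1 tested in spheres only and 19 with too few counts for a test in either, and 11 of the 71 had at most 3 counts in each of the 12 libraries.

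The libraries of the adherent groups differed from each other with the GC content of the transcripts, and the members are GC-rich. Across 11992 genes, the difference of adherent shCtrl replicate 1 from the other replicates of its group correlated with GC content at -0.74, and that of shCtrl replicate 3 at 0.77. Among the shSigma libraries, replicate 3 gave -0.73, replicate 2 gave 0.71 and replicate 1 gave 0.56, while the sphere libraries lay between -0.49 and 0.40. The median GC content was 58.8% over the members tested in adherent cells and 47.7% over all genes, and 45.1% of these members but 13.2% of all genes were above 60%. A fit with GC content taken out, chosen after seeing the data, called 33 members in adherent cells (22 higher, 11 lower) and 31 in spheres (14 higher, 17 lower), and 15 and 8 passed both thresholds. In that fit 64.7% of members and 64.2% of all genes were called in adherent cells, and 62% and 63% in spheres. Past both thresholds were 29.4% of members and 13.8% of all genes in adherent cells, and 16% and 12.9% in spheres. The median log2 fold change of the members was then 0.16 in adherent cells and -0.09 in spheres. Where this fit changed the call of a member in a knockdown comparison, its value is given below as GC-corrected, as are some values that it moved.

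**Figure D1:**
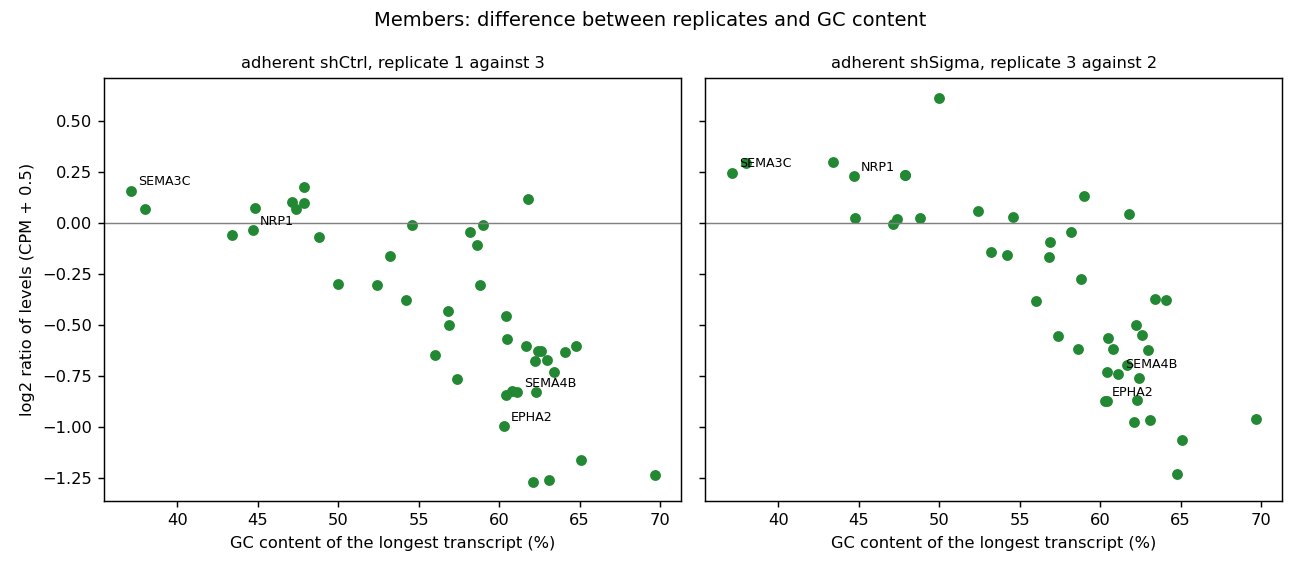
Log2 ratio of the levels of members in 2 replicates of the same group (CPM + 0.5, vertical axis) against the GC content of each gene's longest transcript in percent (horizontal axis), for adherent shCtrl replicate 1 against 3 (left) and adherent shSigma replicate 3 against 2 (right). Each point is a member whose mean reached 2 CPM in an adherent group. Points near 60% GC and above lie mostly below 0 in both panels, EPHA2 and SEMA4B among them, while SEMA3C and NRP1 at lower GC content lie near or above 0.

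ROBO1, a receptor for Slit proteins that spans chr3:78597239-79767998 on the minus strand (GRCh38, GENCODE 44), was all but absent from both shSigma groups. In adherent shCtrl libraries its level was 69.5, 72.9 and 64.6 CPM, and in adherent shSigma libraries it was 0, 0.0512 and 0.0482 CPM, which are 0, 1 and 1 counts. Sphere libraries had 67.3, 58.5 and 66.0 CPM with shCtrl and 0.302, 0.106 and 0.0530 CPM with shSigma, which are 6, 2 and 1 counts. The groups were far apart in both cultures. Taking 3 counts in each adherent shSigma library as the floor, ROBO1 was at least 469-fold lower there, and in spheres the ratio of group means was 416-fold lower. Adjusted p was 6.52e-07 in adherent cells and 3.06e-11 in spheres, and the fitted log2 fold changes, which depend on the prior count at such levels, were -10.88 and -8.62. In bulk RNA, fewer cells with a transcript and less transcript per cell cannot be told apart. The level of ROBO1 did not differ beyond its spread between adherent and sphere shCtrl cells, with a log2 difference of -0.11 ± 0.08 (SE) and adjusted p = 0.275. The 5 tested genes on each side of ROBO1 also tended downwards. In adherent cells their median log2 fold change was -0.59, with 6 of the 10 called lower and 0 higher. Of all 13764 genes tested there, 3813 were called lower. In spheres their median was -0.77, with 9 called lower and 0 higher, beside 4251 of all 13774 genes called lower. Their start coordinates lay between 2892464 and 9552720 bases from that of ROBO1. After the median of its 40 nearest tested neighbours was taken off, ROBO1 still had log2 fold changes of -10.35 and -8.07.

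RefSeq (GRCh38.p14) lists a pair of start sites for ROBO1, and both windows from 250 bases before to 50 after the start are shown because the loss of counts covered the whole gene. Counts per gene do not tell which start was used. Capitals mark an E-box of the letters CACCTG or CAGGTG, the sequence known to be bound by SNAI1, SNAI2 and ZEB1, or a GC box of the letters GGGCGG or CCGCCC, searched on both strands. Upstream start, chr3:79767949-79768248, minus strand:
ROBO1 upstream: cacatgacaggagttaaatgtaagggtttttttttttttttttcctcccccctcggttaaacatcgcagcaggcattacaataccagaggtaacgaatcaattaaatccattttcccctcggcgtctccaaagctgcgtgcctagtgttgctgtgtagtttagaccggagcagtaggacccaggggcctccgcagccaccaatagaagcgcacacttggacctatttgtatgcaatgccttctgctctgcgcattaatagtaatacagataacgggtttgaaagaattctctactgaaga
Internal start, chr3:79019410-79019709, minus strand:
ROBO1 internal: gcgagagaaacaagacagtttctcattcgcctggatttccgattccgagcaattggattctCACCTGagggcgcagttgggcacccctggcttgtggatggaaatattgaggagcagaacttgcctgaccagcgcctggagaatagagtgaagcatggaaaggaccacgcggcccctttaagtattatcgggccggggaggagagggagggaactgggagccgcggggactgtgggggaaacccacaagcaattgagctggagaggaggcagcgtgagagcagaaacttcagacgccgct
The internal window holds 1 E-box and 15 CpG and the upstream window no motif and 11 CpG. An E-box of these letters lies in 20.6% of 35116 RefSeq promoter windows and in 17 of the 93 windows of members (18.3%), and a GC box in 45% of all windows and in 68 of those of members (73.1%). RefSeq windows were found for 61 of the 71 members. A match describes the sequence only.

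ROBO3 and ROBO4 did not share the loss. ROBO3, a Robo receptor of commissural neurons, had 20.3 ± 4.63 CPM in adherent shCtrl and 28.1 ± 7.65 CPM in adherent shSigma, and 22.2 ± 2.67 and 23.0 ± 2.98 CPM in spheres, and it was called in neither culture (adjusted p = 0.244 and 0.734). ROBO4, known from vascular endothelium, rose in adherent cells from 4, 7 and 14 counts (0.334 CPM) to 28, 31 and 22 counts (1.33 CPM), with a log2 fold change of 1.92 ± 0.41 and adjusted p = 0.00599. In spheres ROBO4 had 0, 1 and 1 counts with shCtrl and 4, 6 and 3 with shSigma, too few for a test. ROBO2 was at 3 counts or fewer throughout. The endothelial markers PECAM1, CDH5 and VWF stayed under 0.6 CPM in every library, too low for a knockdown test in either culture. In adherent cells they too were higher with shSigma, at 0.292 against 0.0404, 0.210 against 0.0519 and 0.506 against 0.146 CPM. In spheres PECAM1 (0.191 against 0.0536 CPM) and CDH5 (0.0866 against 0.0531 CPM) were higher with shSigma, and VWF was lower (0.172 against 0.445 CPM). Of the ligands, SLIT2 rose in adherent cells from 0.349 to 0.752 CPM, or 7, 10 and 9 against 16, 16 and 14 counts (log2 fold change 1.04 ± 0.29, adjusted p = 0.0201). This call was lost on leaving out adherent shCtrl replicate 1 (adjusted p = 0.0619) or 3 (0.0520) or shSigma replicate 1 (0.0587) or 2 (0.0590), and also with DESeq2 (0.230). SLIT1 had under 1 CPM in every library, and SLIT3 at most 3 counts. With a mean of 1 CPM as the limit for both partners, 0 of the 12 Slit and Robo pairs were present in any group.

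Of the netrins, laminin-related secreted cues, NTN4 fell in both cultures and fell further in spheres. NTN4 lies at chr12:95657807-95791189 on the minus strand. Its level was 43.4, 38.9 and 40.6 CPM in adherent shCtrl and 9.14, 8.91 and 10.6 CPM in adherent shSigma, and 35.1, 37.6 and 33.8 CPM in sphere shCtrl and 1.71, 1.91 and 1.54 CPM in sphere shSigma. No shSigma library came near a shCtrl library of its culture. The log2 fold change was -2.17 ± 0.09 in adherent cells (adjusted p = 7.08e-06) and -4.37 ± 0.11 in spheres (7.77e-11), and the difference between both changes was -2.26 ± 0.15 (1.52e-07 for the interaction). Sequence before the downstream RefSeq start of NTN4 is shown because NTN4 fell in both cultures and further in spheres, chr12:95790715-95791014, minus strand:
NTN4 downstream: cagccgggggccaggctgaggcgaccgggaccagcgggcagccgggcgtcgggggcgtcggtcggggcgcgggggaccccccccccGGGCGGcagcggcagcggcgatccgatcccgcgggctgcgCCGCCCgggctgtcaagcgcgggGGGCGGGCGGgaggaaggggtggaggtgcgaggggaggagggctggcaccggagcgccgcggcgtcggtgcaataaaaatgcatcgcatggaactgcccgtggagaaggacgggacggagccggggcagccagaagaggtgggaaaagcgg
It holds 4 GC boxes, of which a pair overlap, 40 CpG and no E-box, at 76.7% GC. The window of the other listed start, chr12:95791106-95791405, holds neither motif and 21 CpG at 62.3% GC.

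NTN1, netrin-1, the ligand of DCC and UNC5 receptors, did not follow NTN4. In adherent cells it had 28.3 ± 6.88 CPM with shCtrl and 19.5 ± 3.93 CPM with shSigma, a log2 difference of -0.59 ± 0.22 that missed the threshold (adjusted p = 0.0691) and that was called lower when GC-corrected (-0.89). In spheres it rose from 32.1 ± 3.55 to 44.6 ± 3.53 CPM (log2 fold change 0.47 ± 0.09, adjusted p = 0.000917), or 0.22 when GC-corrected. The test of the difference between cultures gave 1.01 ± 0.25 (adjusted p = 0.0109). Among the receptors, UNC5A rose in spheres from 2.71 ± 0.643 to 4.98 ± 0.414 CPM (log2 fold change 0.87 ± 0.18, adjusted p = 0.00123), or 0.55 when GC-corrected. UNC5B stayed under 2 CPM in every library. It was higher with shSigma in adherent cells (0.594 against 1.52 CPM, log2 fold change 1.30 ± 0.43, adjusted p = 0.0384) and in spheres (0.974 against 1.58 CPM, log2 fold change 0.68 ± 0.22, adjusted p = 0.0193). The first call was lost without adherent shCtrl replicate 2 (adjusted p = 0.0509) or 3 (0.0538) or shSigma replicate 1 (0.105) or 2 (0.0830), and with DESeq2 (0.0545). The second was lost without sphere shCtrl replicate 1 (0.0686) or shSigma replicate 2 (0.0545), with DESeq2 (0.138) and when GC-corrected (0.0634). DCC, UNC5C and UNC5D were at 3 counts or fewer in every library. UNC50, the member by name only, fell by 0.30 on the log2 scale in spheres (39.7 ± 5.11 to 32.2 ± 1.71 CPM, adjusted p = 0.0124), a call lost without sphere shSigma replicate 2 (0.0599).

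**Figure D2:**
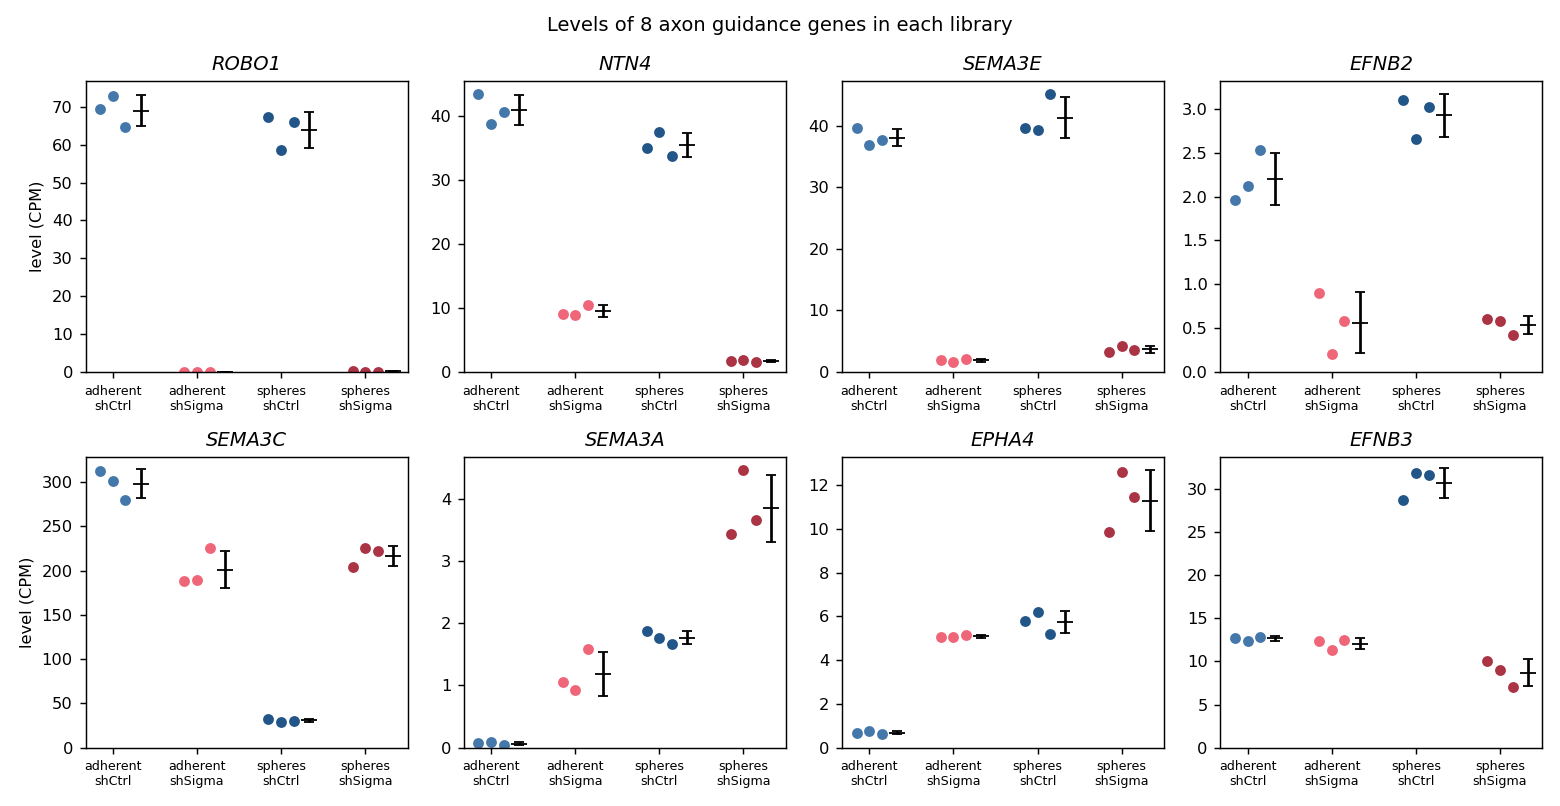
Level in CPM (vertical axis, starting at 0, own scale for each gene) of 8 guidance genes in each of the 12 libraries, by group. Points are libraries and the bar beside them is the mean ± SD of 3. ROBO1, NTN4, SEMA3E and EFNB2 were lower in every shSigma library than in any shCtrl library of the same culture, SEMA3A and EPHA4 were higher, SEMA3C was lower in adherent cells and higher in spheres, and EFNB3 was lower in spheres with overlapping adherent groups.

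Of the ephrin-B ligands, membrane proteins that also signal into their own cell, EFNB2 fell in both cultures and EFNB3 in spheres. EFNB2 had 1.96, 2.12 and 2.52 CPM in adherent shCtrl and 0.905, 0.205 and 0.579 CPM in adherent shSigma. In spheres it had 3.10, 2.65 and 3.02 CPM against 0.605, 0.583 and 0.424 CPM. The groups did not overlap in either culture, with log2 fold changes of -2.00 ± 0.38 (adjusted p = 0.00367) and -2.43 ± 0.23 (2.75e-06). EFNB3 had 12.8, 12.4 and 12.9 CPM in adherent shCtrl and 12.4, 11.4 and 12.5 CPM in adherent shSigma, and the groups overlapped (adjusted p = 0.277). In spheres it had 28.7, 31.8 and 31.6 CPM against 10.1, 8.95 and 6.99 CPM, a log2 fold change of -1.82 ± 0.12 (1.33e-07). The change of EFNB3 differed between the cultures by -1.75 ± 0.16 (adjusted p = 3.51e-06). EFNB1 was called in neither (adjusted p = 0.0776 and 0.191), and was called higher in adherent cells when GC-corrected (0.36).

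Ephrin-A ligands are anchored to the membrane by a lipid tail, and 3 of them were called in a culture. EFNA1, a main ligand of EPHA2, rose in adherent cells from 22.9 ± 0.336 to 32.9 ± 0.308 CPM and fell in spheres from 57.1 ± 2.22 to 39.5 ± 1.33 CPM, with log2 fold changes of 0.46 ± 0.07 and -0.54 ± 0.06 (adjusted p = 0.00142 and 2.20e-05) and a difference of -1.06 ± 0.09 (1.61e-06). EFNA5 did not pass the test in adherent cells (93.7 ± 3.80 against 93.7 ± 9.79 CPM, adjusted p = 0.497) and rose in spheres from 66.4 ± 1.22 to 91.0 ± 2.67 CPM (log2 fold change 0.45 ± 0.05, adjusted p = 2.17e-05). EFNA3 fell in spheres from 9.85 to 7.23 CPM (log2 fold change -0.45 ± 0.13, adjusted p = 0.0108). EFNA3 and EFNA4 both overlap the readthrough gene EFNA4-EFNA3, and how reads shared by overlapping genes were assigned is not given in the sources used here.

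Eph receptors changed in opposite directions. EPHA4, which binds ephrins of both classes, had 0.691, 0.761 and 0.631 CPM in adherent shCtrl and 5.05, 5.07 and 5.16 CPM in adherent shSigma. In spheres it had 5.80, 6.18 and 5.19 CPM against 9.83, 12.6 and 11.4 CPM. It was higher with shSigma in every library of both cultures, with log2 fold changes of 2.80 ± 0.16 (adjusted p = 1.77e-05) and 0.98 ± 0.13 (4.4e-05), and rose less in spheres (difference -1.89 ± 0.21, adjusted p = 1.64e-05). EPHA7 moved the other way, from 32, 20 and 30 counts to 1, 2 and 1 in adherent cells and from 35, 24 and 32 counts to 1, 2 and 0 in spheres. Against a floor of 3 counts in each library it was at least 7.38-fold and 10.6-fold lower (adjusted p = 0.000209 and 6.87e-06).

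EPHA2, the most abundant Eph receptor per kilobase in adherent shCtrl cells (39.8 CPM per kilobase of exon), had 111, 160 and 222 CPM in adherent shCtrl and 81.3, 99.8 and 54.2 CPM in adherent shSigma. In spheres it had 71.0, 48.8 and 58.7 CPM against 74.3, 75.7 and 74.2 CPM. The groups did not overlap, but the libraries were widely spread in all groups except sphere shSigma. The log2 fold changes were -1.12 ± 0.32 in adherent cells (adjusted p = 0.0301) and 0.33 ± 0.12 in spheres (0.0344), with a difference of 1.40 ± 0.39 (0.0251). The adherent call was lost without shCtrl replicate 2 (adjusted p = 0.0962) or 3 (0.0725) or shSigma replicate 1 (0.111), and stood when GC-corrected (-1.35). The sphere call was lost without shCtrl replicate 3 (0.0850) or shSigma replicate 1 (0.0529) or 2 (0.0665), and when GC-corrected (0.18, adjusted p = 0.0654). The call on the difference was lost without sphere shCtrl replicate 2 (0.0515). With the median of the 40 nearest genes taken off, the adherent call (-0.94, adjusted p = 0.0569) and the sphere call (0.22, 0.127) were lost. The call on the difference was lost there too (1.135, adjusted p = 0.0579). With same-numbered libraries taken as blocks, the adherent call (adjusted p = 0.104) and that on the difference (0.0553) were lost.

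EPHB3 had 1.19, 1.18 and 2.21 CPM in adherent shCtrl and 3.57, 5.12 and 3.47 CPM in adherent shSigma, but 11.5, 11.5 and 10.9 CPM in sphere shCtrl and 6.40, 6.83 and 7.31 CPM in sphere shSigma. It rose in adherent cells (log2 fold change 1.35 ± 0.29, adjusted p = 0.00647) and fell in spheres (-0.72 ± 0.10, 9.29e-05), and the difference was -2.12 ± 0.29 (adjusted p = 0.000111). EPHB4, the usual partner of EFNB2, rose in spheres from 58.3 ± 6.5 to 86.1 ± 3.33 CPM (log2 fold change 0.56 ± 0.08, adjusted p = 7.79e-05). Its 40 nearest tested genes had a median of 0.64 there, and with that median taken off EPHB4 was at -0.08 (adjusted p = 0.427). In adherent cells EPHB4 was not called (0.70 ± 0.26, adjusted p = 0.0703), but was when GC-corrected (0.45). Its 40 nearest genes had a median of 0.63 in adherent cells, and with that taken off EPHB4 was at 0.07 (adjusted p = 0.859). Of the 22 ephrins and Eph receptors 14 were tested in each culture, with 3 called higher and 3 lower in adherent cells and 4 higher and 6 lower in spheres. That is 42.9% against 50% of all genes in adherent cells, and 71.4% against 61.1% in spheres. EPHA10 was called in neither culture (adjusted p = 0.999 and 0.0828), but was lower in both when GC-corrected (-0.30 and -0.45). EPHA1 was at 0 in every library, and EPHA3, EPHA5, EPHA6 and EPHA8 had at most 3 counts.

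**Figure D3:**
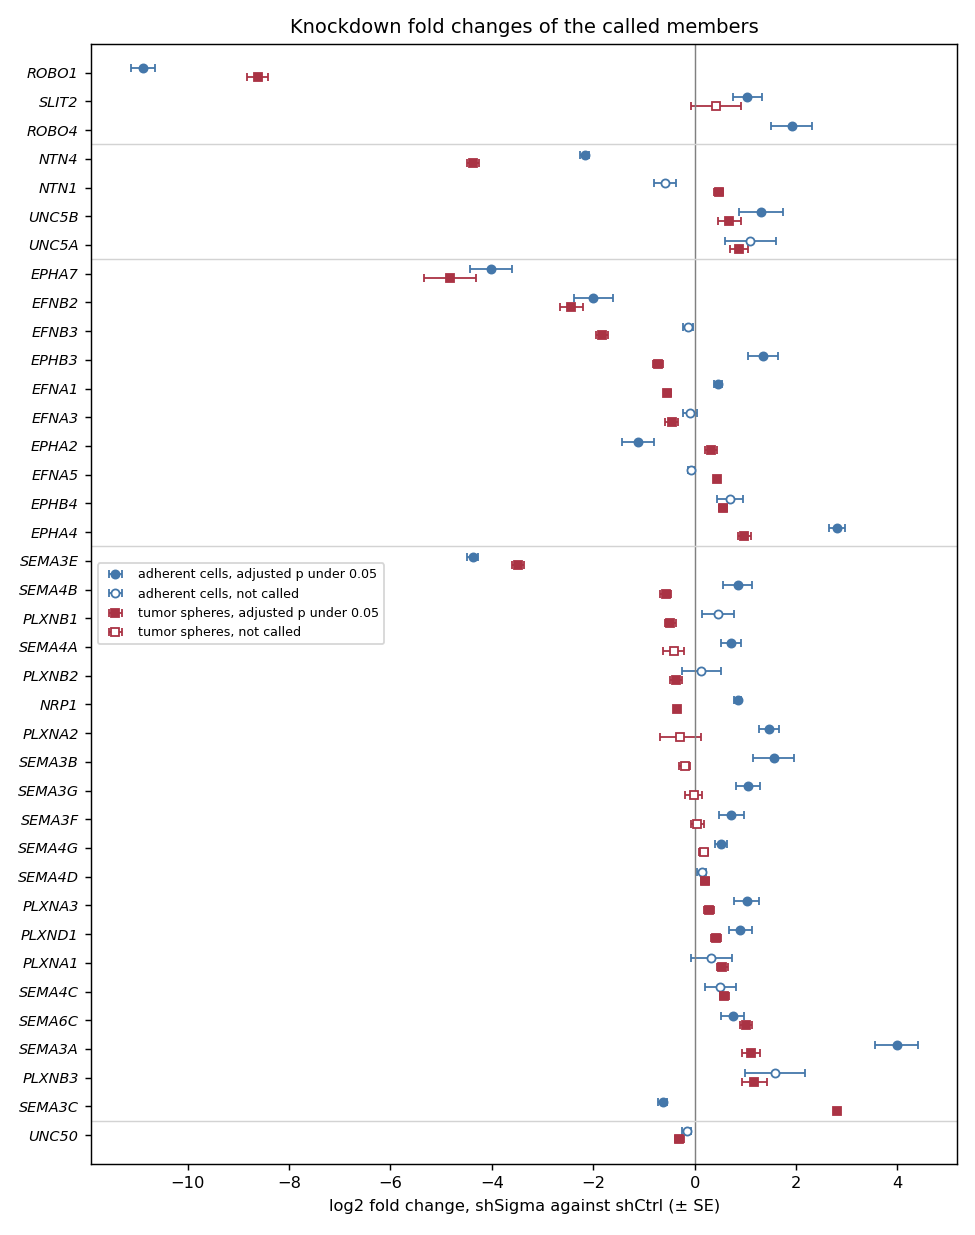
Log2 fold change of shSigma against shCtrl ± SE (horizontal axis) for every member called in adherent cells or in spheres, with circles for adherent cells and squares for spheres, filled where adjusted p was under 0.05. Grey lines separate, from the top, Slits and Robos, netrins, ephrins and Eph receptors, semaphorins with plexins and neuropilins, and UNC50. ROBO1 stood at -10.88 and -8.62, EPHA7, NTN4, SEMA3E and EFNB2 were lower in both cultures, and EPHB3, EFNA1, SEMA4B and NRP1 were higher in adherent cells and lower in spheres.

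The secreted class 3 semaphorins gave some of the largest changes in either direction. SEMA3E, the class 3 member that binds PLXND1 without needing a neuropilin, lies at chr7:83363238-83649139 on the minus strand. It had 39.5, 36.9 and 37.7 CPM in adherent shCtrl and 1.95, 1.64 and 2.12 CPM in adherent shSigma. In spheres it had 39.5, 39.3 and 45 CPM against 3.18, 4.29 and 3.65 CPM. All shSigma libraries were low, with log2 fold changes of -4.38 ± 0.12 (adjusted p = 1.43e-06) and -3.48 ± 0.12 (6.38e-10). The fall was smaller in spheres by 0.84 ± 0.17 (adjusted p = 0.00256).

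SEMA3C, at chr7:80742538-80922359 on the minus strand, changed in opposite directions in the 2 cultures. It had 312, 302 and 280 CPM in adherent shCtrl and 189, 190 and 225 CPM in adherent shSigma. In spheres it had 32.1, 29.5 and 30.7 CPM with shCtrl and 204, 225 and 222 CPM with shSigma. The sphere shCtrl libraries stood apart, low, from all others, whose groups did not overlap in adherent cells either. The log2 fold changes were -0.63 ± 0.08 in adherent cells (adjusted p = 0.000562) and 2.81 ± 0.06 in spheres (3.06e-11), and the difference of 3.38 ± 0.11 was past the threshold (3.05e-10). With the median of the 40 nearest genes taken off, the adherent value was -1.09.

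SEMA3A, the neuropilin ligand best known for collapse of growth cones, was near the floor in adherent shCtrl cells, with 2, 2 and 1 counts, and had 1.05, 0.922 and 1.59 CPM in adherent shSigma. Sphere libraries had 1.87, 1.77 and 1.66 CPM with shCtrl and 3.43, 4.45 and 3.65 CPM with shSigma. It was higher with shSigma in all libraries, at least 9.88-fold against a floor of 3 counts a library in adherent cells (adjusted p = 0.000231) and by a log2 fold change of 1.12 ± 0.18 in spheres (0.000195). With the nearest genes' median taken off, the sphere value was 0.62. SEMA3D, the fourth class 3 gene of this stretch, did not pass the test in adherent cells (1.02 against 0.998 CPM, adjusted p = 0.795) and was too low for a test in spheres. These 4 genes lie within 4.44 megabases of chromosome 7. The windows of SEMA3E and SEMA3C are shown because these neighbours moved in opposite directions in spheres, SEMA3E at chr7:83649090-83649389 and SEMA3C, from the more downstream of its RefSeq starts, at chr7:80919002-80919301, both on the minus strand:
SEMA3E: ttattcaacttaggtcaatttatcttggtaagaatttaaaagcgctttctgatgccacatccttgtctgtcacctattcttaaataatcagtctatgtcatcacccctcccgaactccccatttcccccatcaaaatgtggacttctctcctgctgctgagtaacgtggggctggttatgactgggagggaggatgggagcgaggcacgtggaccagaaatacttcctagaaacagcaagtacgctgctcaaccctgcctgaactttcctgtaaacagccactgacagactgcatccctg
SEMA3C: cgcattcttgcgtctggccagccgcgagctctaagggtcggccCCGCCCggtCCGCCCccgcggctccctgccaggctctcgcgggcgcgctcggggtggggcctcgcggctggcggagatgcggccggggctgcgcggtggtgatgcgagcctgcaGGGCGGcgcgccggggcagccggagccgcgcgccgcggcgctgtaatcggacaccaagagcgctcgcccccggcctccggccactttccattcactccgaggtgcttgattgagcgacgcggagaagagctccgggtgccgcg
This SEMA3E window holds neither motif and 6 CpG at 47.3% GC, and this SEMA3C window 3 GC boxes and 46 CpG at 75.7% GC. RefSeq lists 1 more start for each gene, and those windows do not show this contrast. That of SEMA3E, chr7:83641382-83641681, holds neither motif and 1 CpG at 35.7% GC, and that of SEMA3C, chr7:80922340-80922639, neither motif and 2 CpG at 36% GC.

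**Figure D4:**
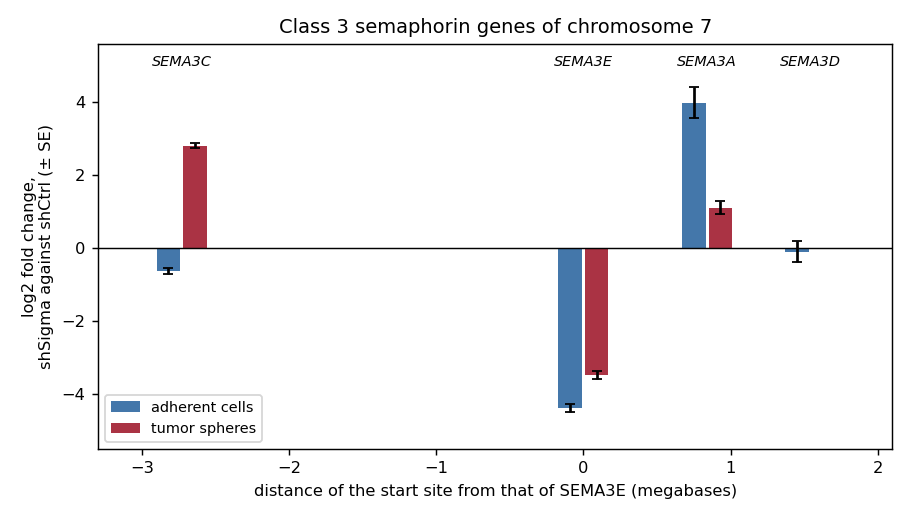
Log2 fold change of shSigma against shCtrl ± SE (vertical axis) for the class 3 semaphorin genes of chromosome 7, placed by the distance of their start sites from that of SEMA3E in megabases (horizontal axis), with blue bars for adherent cells and red bars for spheres. SEMA3C at -2.73 megabases fell in adherent cells and rose in spheres, SEMA3E fell in both, SEMA3A at 0.84 megabases rose in both, and SEMA3D at 1.54 megabases has no sphere bar because its counts were too low.

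SEMA3B and SEMA3G, both on chromosome 3, were higher with shSigma in adherent cells only. SEMA3B had 3.46, 4.10 and 5.52 CPM in adherent shCtrl and 16.2, 16.8 and 6.85 CPM in adherent shSigma, so shSigma replicate 3 lay nearest to the controls. The log2 fold change was 1.56 ± 0.40 (adjusted p = 0.0191), a call lost without shCtrl replicate 1 (0.0745) or 2 (0.0664) or shSigma replicate 1 (0.0543). In spheres SEMA3B had 16.3, 12.9 and 15.7 CPM against 13.3, 13.5 and 12.4 CPM, which overlap (-0.20 ± 0.11, adjusted p = 0.136). It was called lower there when GC-corrected (-0.53) and without shCtrl replicate 2 (-0.30). SEMA3G had 1.57, 1.61 and 1.74 CPM in adherent shCtrl and 3.86, 4.20 and 2.56 CPM in adherent shSigma (log2 fold change 1.05 ± 0.23, adjusted p = 0.00721). Sphere libraries of SEMA3G had 3.46, 3.37 and 3.68 CPM against 4.13, 2.91 and 3.34 CPM and overlapped (adjusted p = 0.928). The test of the difference between cultures gave -1.80 ± 0.42 for SEMA3B (adjusted p = 0.00851) and -1.12 ± 0.27 for SEMA3G (0.00746). SEMA3F, a neuropilin-2 ligand, had 7.19 ± 1.58 and 12.3 ± 3.04 CPM in adherent shCtrl and shSigma cells, or 0.72 ± 0.24 on the log2 scale (adjusted p = 0.0435) that lost its call on leaving out any adherent library other than shSigma replicate 3 (adjusted p between 0.0531 and 0.0856) and that was 0.43 when GC-corrected.

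Of the membrane-bound semaphorins, SEMA4B was by far the most abundant, with 24.9, 46.2, 51.5 and 34.7 CPM per kilobase in adherent shCtrl, adherent shSigma, sphere shCtrl and sphere shSigma. It had 126, 171 and 225 CPM in adherent shCtrl and 358, 383 and 229 CPM in adherent shSigma, and 370, 290 and 420 against 235, 249 and 244 CPM in spheres. The groups did not overlap, though adherent shSigma replicate 3 was within 5 CPM of the highest control. Log2 fold changes were 0.85 ± 0.28 (adjusted p = 0.0473) and -0.57 ± 0.12 (0.00206), and the difference was -1.47 ± 0.34 (0.0107). The adherent call was lost without shCtrl replicate 1 (adjusted p = 0.116) or 2 (0.124) or shSigma replicate 1 (0.130) or 2 (0.128), and with the median of the nearest genes taken off (0.27, adjusted p = 0.466). SEMA4A rose in adherent cells from 1.83 ± 0.406 to 3.15 ± 0.268 CPM (log2 fold change 0.72 ± 0.20, adjusted p = 0.0192), a call lost without shSigma replicate 1 (0.0581) and with DESeq2 (0.0779). SEMA4G rose in adherent cells from 36.6 ± 3.93 to 54.8 ± 5.25 CPM (0.52 ± 0.11, adjusted p = 0.00651), or by 0.33 when GC-corrected, and overlaps MRPL43 on the other strand. SEMA4C rose in spheres from 27.2 ± 3.47 to 41.0 ± 1.60 CPM (0.59 ± 0.09, adjusted p = 0.000203). In adherent cells SEMA4C and SEMA7A, which is held in the membrane by a lipid anchor, were not called, but were when GC-corrected (0.25 and -0.27). In 1 fit of all libraries, which shares 1 spread among the groups, the sphere calls of SEMA4B (adjusted p = 0.0771) and SEMA4C (0.0697) were lost. SEMA4D, at 36.6 against 42.2 CPM in spheres, was called at 0.20 ± 0.08 (adjusted p = 0.0416), but not without any of shCtrl replicates 2 and 3 and shSigma replicates 2 and 3 (adjusted p between 0.0931 and 0.156) nor with DESeq2 (0.0721).

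SEMA6C, a transmembrane ligand of A-type plexins, was higher with shSigma in both cultures. It had 5.42, 5.54 and 8.68 CPM in adherent shCtrl and 12.9, 12.1 and 9.21 CPM in adherent shSigma, and 6.79, 7.23 and 6.70 against 14.8, 15.2 and 12 CPM in spheres. The groups did not overlap. Log2 fold changes were 0.75 ± 0.22 (adjusted p = 0.0259) and 1.01 ± 0.12 (1.80e-05), or 0.43 and 0.70 when GC-corrected. The adherent call was lost without shCtrl replicate 2 (adjusted p = 0.0670) or shSigma replicate 1 (0.0631) or 2 (0.0588). SEMA6A and SEMA6B were called in neither culture, and SEMA6B was called lower in both when GC-corrected (-0.36 and -0.53).

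Of the plexins and the neuropilin NRP1, the receptors for these ligands, 9 were tested in each culture. In adherent cells 4 were called higher and 0 lower, or 44.4% against 50% of all genes, and in spheres 4 higher and 3 lower, or 77.8% against 61.1%. PLXNA2 had 1.04, 1.56 and 1.5 CPM in adherent shCtrl and 3.90, 4.20 and 3.71 CPM in adherent shSigma, groups well apart, with a log2 fold change of 1.47 ± 0.19 (adjusted p = 0.000622). In spheres its libraries overlapped, with 2.17, 1.49 and 0.605 CPM against 1.11, 1.43 and 0.901 CPM (adjusted p = 0.564), and the difference between cultures was -1.81 ± 0.46 (0.00951). PLXNA3 had 12.1, 15.5 and 21.0 CPM against 37.0, 39.0 and 26.4 CPM in adherent cells and 34.3, 26.6 and 31.9 CPM against 38.9, 39.6 and 34.5 CPM in spheres. It was higher in every shSigma library, with log2 fold changes of 1.02 ± 0.24 (adjusted p = 0.0136) and 0.28 ± 0.10 (0.0279), the sphere call being lost without shCtrl replicate 2 (0.0774) or shSigma replicate 1 (0.0628) or 2 (0.110). The sphere call was also lost with the nearest genes' median taken off (0.12, adjusted p = 0.328). The adherent call was lost with same-numbered libraries taken as blocks (adjusted p = 0.0635), and the adherent value was 0.89 when GC-corrected. PLXNB3 had 3.40, 1.77 and 2.72 CPM in sphere shCtrl and 7.36, 6.04 and 4.4 CPM in sphere shSigma (1.18 ± 0.25, adjusted p = 0.00211). In adherent cells PLXNB3 had 0.269, 0.465 and 1.22 CPM against 2.29, 2.77 and 1.06 CPM, which overlap (adjusted p = 0.0664), and it was called there when GC-corrected (1.24), with DESeq2 (1.62), and without shCtrl replicate 3 (2.39) or shSigma replicate 3 (1.91). PLXNA3 overlaps LAGE3 on the other strand and PLXNB3 overlaps SRPK3 on the same strand.

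NRP1, the co-receptor of SEMA3A, had 68.4, 71.4 and 70.1 CPM in adherent shCtrl and 129, 122 and 143 CPM in adherent shSigma, and 223, 209 and 196 against 159, 161 and 173 CPM in spheres. It rose in adherent cells (log2 fold change 0.85 ± 0.06, adjusted p = 4.98e-05) and fell in spheres (-0.35 ± 0.06, 0.000275), with a difference of -1.26 ± 0.10 (8.86e-07). NRP2 had too few counts for a test. PLXND1, the receptor of SEMA3E, rose in both cultures, from 13.9 to 27 CPM in adherent cells (0.90 ± 0.23, adjusted p = 0.0179) and from 28.9 to 38.9 CPM in spheres (0.43 ± 0.09, 0.00207), or by 0.59 and 0.16 when GC-corrected. Its adherent call was lost without shCtrl replicate 2 (adjusted p = 0.0510). In spheres PLXNA1 rose from 35.1 to 51.5 CPM (0.55 ± 0.12, adjusted p = 0.00224), or by 0.32 when GC-corrected. PLXNB1 and PLXNB2, receptors of class 4 semaphorins, fell in spheres from 49.2 to 35.3 CPM (-0.48 ± 0.11, adjusted p = 0.00260) and from 245 to 191 CPM (-0.36 ± 0.12, 0.0262). The PLXNB2 call was lost without sphere shCtrl replicate 1 (adjusted p = 0.0936) or 3 (0.0974) or shSigma replicate 3 (0.0663), and its GC-corrected value was -0.63. With the nearest genes' median taken off, the values were -0.04 for PLXNB1 and 0.09 for PLXNB2. In 1 fit of all libraries the sphere calls of PLXNA1 (adjusted p = 0.197), PLXNB1 (0.128) and PLXND1 (0.0694) were lost. Of the 31 semaphorins, plexins and neuropilins, 12 of 26 tested were called higher and 2 lower in adherent cells, and 9 of 25 higher and 5 lower in spheres. That is 53.8% against 50% of all genes in adherent cells, and 56% against 61.1% in spheres.

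The 2 knockdown comparisons share no library, and the direction of a call was not always the same in both. Of 17 members called in both, 6 were higher and 5 lower in both cultures, 4 were higher in adherent cells and lower in spheres, and 2 were lower in adherent cells and higher in spheres. Opposite calls were thus 6 of 17 members (35.3%), beside 552 of the 4828 genes called in both (11.4%). The 4 were EFNA1, EPHB3, NRP1 and SEMA4B, and the 2 were EPHA2 and SEMA3C. The test of the difference itself, an interaction of hairpin and culture, called 17 of 52 members, or 32.7% against 28.4% of all 14175 genes. The log2 fold change with shSigma was higher in spheres than in adherent cells for 5 of them and lower for 12. Of the 17, 15 passed both thresholds, or 28.8% against 8.54% of all genes. When GC-corrected, 25 members were called, 6 and 19 by direction, and 13 passed both thresholds, or 48.1% and 25% against 41.6% and 9.16% of all genes. For ROBO1 the difference was 2.18 ± 0.77 and missed the threshold (adjusted p = 0.0542), on a count of 9 or fewer in the shSigma libraries of either culture.

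In shCtrl cells, 25 members were higher in spheres than in adherent cells and 6 were lower. This comparison uses the shCtrl libraries of both knockdown comparisons, so it is not independent of them. It called 31 of 51 members, or 60.8% against 53.7% of all 13800 genes, and both thresholds were met by 21 (17 higher, 4 lower), or 41.2% against 15.8%. When GC-corrected, 28 were called higher and 11 lower, and 14 met both thresholds (10 higher, 4 lower), or 76.5% called and 27.5% past both against 59.3% and 12.9% of all genes. The median log2 fold change of the members was 0.65, or 0.31 when GC-corrected, against 0.04 over all genes. Of 15 ephrins and Eph receptors tested 11 were higher in spheres and 2 lower, and of 26 semaphorins, plexins and neuropilins 13 were higher and 3 lower. That is 86.7% and 61.5% called, against 53.7% of all genes. Members higher in spheres included SEMA3A, at least 14.7-fold against a floor of 3 counts a library (adjusted p = 1.64e-05), and EPHA4 (log2 fold change 3.03 ± 0.17, adjusted p = 5.68e-06). EPHB3 (2.88 ± 0.23, adjusted p = 3.25e-05) and NRP1 (1.58 ± 0.07, 1.37e-06) were also higher. SEMA3C (-3.28 ± 0.07, adjusted p = 7.64e-08), EPHA2 (-1.47 ± 0.26, 0.00337), SEMA7A (-1.21 ± 0.18, 0.000908) and SEMA3D (-2.32 ± 0.51, 0.00565) were the members lower in spheres past both thresholds.

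Per kilobase of exon, the leading members in adherent shCtrl cells were SEMA3C with 48.9, EPHA2 with 39.8, SEMA4B with 24.9 and PLXNB2 with 19.3 CPM per kilobase. In sphere shCtrl cells they were SEMA4B with 51.5, PLXNB2 with 33.6, EFNA1 with 26.4 and NRP1 with 18.2, and SEMA3C stood at 5.05. In sphere shSigma cells SEMA3C led again with 35.5, close to SEMA4B with 34.7. ROBO1 stood at 6.24 and 5.79 CPM per kilobase in the shCtrl groups, NTN4 at 9.39 and 8.13 and SEMA3E at 4.5 and 4.89, so none of these 3 was among the most abundant. Between 43 and 46 members reached a mean of 1 CPM in each group, and between 26 and 29 had at least 10 CPM.

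Every ligand of a class was paired with every receptor of its partner class, so not every pair counted is known to bind. A pair was counted as present when the mean of both partners was 1 CPM or more. Ephrin-B with EphB or EPHA4 had 9 of 18 pairs in adherent shCtrl, 8 in adherent shSigma, 12 in sphere shCtrl and 8 in sphere shSigma, EFNB2 being under the limit in both shSigma groups. Class 3 semaphorins with neuropilins had 6 of 14 pairs in all 4 groups, each of them with NRP1, and netrin-1 with its receptors 1 of 6 in adherent shCtrl, 3 in adherent shSigma, 2 in sphere shCtrl and 3 in sphere shSigma. Class 4 semaphorins with B-type plexins had 12 of 18 pairs in adherent shCtrl and 18 in the other groups. Co-expression in a bulk library does not say that both partners were made by the same or by neighbouring cells.

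Other genes of axon guidance signalling, at the cell surface and inside the cell, were also called in both directions in each culture. The 82 listed genes include adaptors, kinases, receptors, co-receptors, adhesion molecules, some further ligands and cytoskeletal effectors. In adherent cells 33 of 74 tested were called, 20 higher and 13 lower, and 9 passed both thresholds, or 44.6% and 12.2% against 50% and 13.7% of all genes. In spheres 57 of 76 were called, 38 higher and 19 lower, and 12 met both (9 higher, 3 lower), or 75% and 15.8% against 61.1% and 13.1%. Past both thresholds in both cultures were NCAM1, a neural adhesion molecule (log2 fold changes 4.10 and 2.40), MICAL2, an oxidoreductase acting on actin (2.13 and 1.70), the adaptor GRB10 (1.92 and 1.14), DPYSL2, a mediator of semaphorin signals to microtubules (1.07 and 1.91), and LIMK1, which phosphorylates cofilin (1.05 and 1.08), all higher with shSigma.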

How the data were processed

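The authors made directional polyA libraries from 800 ng of RNA and sequenced single-end reads of 75 bases on a NextSeq500. Per the submitters' processing notes, reads were aligned with STAR 2.6.1c to GRCh38.p12. The annotation, the strand setting and the treatment of multi-mapping reads are not given in the sources used here. The deposited values were raw counts per Ensembl gene for all 12 libraries, with no normalization.

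Identifiers were matched to GENCODE 44 for symbols, coordinates and exon length. Levels are CPM on TMM effective library sizes over the 12 libraries. Each comparison was fitted to its own groups with edgeR 4.0.16 (robust quasi-likelihood, filterByExpr with a minimum count of 10, TMM) under R 4.3.3 with limma 3.58.1, with adjustment over all genes tested. The SE was derived from the fold change and the F statistic. The scripts were tested on simulated data. The gene targeted by shSigma is not reported here. Reference counting used Python 3.11.15 and figures matplotlib 3.10.9. An exact permutation test of 3 against 3 libraries cannot go below p = 0.1, so single genes were judged by the fit.

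The members, the lists and the rules for naming genes were chosen with earlier results of these data known. Members past both thresholds in a knockdown comparison whose higher group averaged 2 CPM or more were given library by library. EPHA7, NRP1, SLIT2, ROBO4 and SEMA4B are given library by library in addition, chosen after their values were seen. Other called members were given by level, fold change and call, and the rest by counts. Of the 82 pathway genes, those past both thresholds in both cultures were named. Alternatives were DESeq2 1.42.0, its size factors, upper-quartile scaling, other filters, 1 fit of all libraries, glmTreat, a replicate block, a regional median of 40 genes, an adjusted p under 0.01 and leaving out each library. A gene-wise offset for GC content (lowess, span 0.2), alone or with the block, was added after seeing the data. No 2 libraries were alike enough to be copies of 1 library.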

Additional observations from a re-analysis of the deposited data

Results flagged for a closer look

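The change with the knockdown hairpin differed between spheres and adherent cells for 17 members by the interaction test of edgeR (adjusted p under 0.05), and the difference of the log2 fold changes, spheres minus adherent, is given for each. It was negative for EFNA1 (-1.06), EFNB3 (-1.75), EPHA4 (-1.89), EPHB3 (-2.12), NRP1 (-1.26), NTN4 (-2.26), PLXNA2 (-1.81), SEMA3A (-2.92), SEMA3B (-1.80), SEMA3G (-1.12), SEMA4A (-1.19) and SEMA4B (-1.47). It was positive for EFNA5 (0.45), EPHA2 (1.40), NTN1 (1.01), SEMA3C (3.38) and SEMA3E (0.84). All 17 were also called in the GC-corrected fit. Groups of 3 libraries are too small for a test of outlying samples.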

How the results depend on the processing

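Of the results on single members, 1739 kept their direction and side of the threshold across the alternatives, 145 lost their call, 9 gained one and 10 turned direction. Deviations of same-numbered libraries from their group means correlated at -0.46, 0.0023 and -0.74 in adherent cells, and at 0.036, 0.0071 and -0.045 in spheres. Adherent libraries also deviated with GC content, so these correlations cannot show whether same-numbered libraries were prepared together. With a replicate block 15 members and 18 pathway genes were called in adherent cells. That setting called 29.4% of members and 35.4% of all genes in adherent cells. All genes stood at 50% in the main fit and 64.2% with GC content taken out. The counts that follow have no such share beside each and are not read as results about the members. With 10 counts required in every library 16 members were called there and 9 passed both thresholds. With an adjusted p under 0.01 the counts there were 15 members and 21 pathway genes, and with GC content taken out 53 pathway genes. With glmTreat 6 members passed in adherent cells, 6 for the interaction and 12 between cultures. On leaving out a library, members called ran from 17 to 33 in adherent cells, 27 to 33 in spheres, 16 to 24 for the interaction and 28 to 34 between cultures, those past both thresholds from 12 to 19, 9 to 12, 12 to 16 and 18 to 24, and pathway genes called from 23 to 36, 53 to 56, 24 to 33 and 40 to 58.

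With the regional median taken off, spheres gave EPHB4 -0.077, PLXNB2 0.086, SEMA3B 0.095 and SEMA3G 0.48 (adjusted p = 0.0253). Leaving out a library, uncalled sphere values of PLXNA2 ran from -0.66 to 0.15, turning sign without shCtrl replicate 1, and those of SEMA3G from -0.16 to 0.089, turning without shCtrl replicate 3 (0.03) or shSigma replicate 2 or 3 (0.01). EFNA3 between cultures was -0.16 with GC content taken out and -0.15 with the block as well. In 1 fit of all libraries 10 sphere calls were lost, those of EPHA2, PLXNA1, PLXNA3, PLXNB1, PLXNB2, PLXND1, SEMA4B, SEMA4C, SEMA4D and UNC5B. Without a filter the adherent calls of EPHA2, SEMA3B and SEMA4B and the sphere calls of EPHA2 and PLXNB2 were lost. The cause was not tested. Members under about 1 CPM rest on few counts a library, so changes in them were hard to detect at this depth.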
